A study of Mus musculus with 22 samples.

Results

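Open chromatin of late male germ cells was compared between libraries whose names hold RoundSpermatid and libraries whose names hold Spermatocyte. The 5 libraries, 3 named RoundSpermatid (A, B and C) and 2 named Spermatocyte (A and B), were chosen by these names from the 22 libraries of a mouse ATAC-seq series, an assay that reads open DNA by where the Tn5 transposase can insert adapters. The series otherwise holds spermatogonia sorted by FACS from mice that carry or have lost TERT, the catalytic subunit of telomerase. The gates used to sort them are not given in the sources used here. All 5 libraries come from C57BL/6 mice aged 8 to 12 weeks with the genotype TertTdtomato/+, which names a tdTomato reporter on 1 Tert allele; no deleted counterpart is among them. The labels give a day 7 collection after tamoxifen for the study as a whole, but no time entry for these samples. Every one of the 5 names holds Het1, so the libraries may be portions of 1 source, and p-values measure the spread between libraries, which may be technical. The names also end in 75k, except RoundSpermatid C, which ends in 150k. A pair of reference groups is used below: 3 control libraries of KIT-positive (differentiating) and 3 of MCAM-high KIT-negative (undifferentiated) spermatogonia. Both come from TertCreER/+:Rosalsl-Tdtomato/+ mice aged 8 to 12 weeks, collected on day 7 after tamoxifen. A further 2 control libraries, of MCAM-medium KIT-negative spermatogonia from mice of the same age range, enter only the fit of 13 heterozygous libraries.

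The cell type of these libraries is given in 2 ways that disagree for 4 of the 5. By name, RoundSpermatid A, B and C are round spermatids and Spermatocyte A and B are spermatocytes. By sample title, and by the source and cell type entries, RoundSpermatid A and B are the spermatocytes, while RoundSpermatid C, Spermatocyte A and Spermatocyte B are the round spermatids. Both groupings hold 3 round spermatid and 2 spermatocyte libraries, and RoundSpermatid C is the only library that both call the same. If that library is set aside, the groupings compare the same libraries with opposite sign. Below, each library is called by its name, and each comparison says whether it groups by name or by title. Every fold change is round spermatids over spermatocytes under the grouping stated.

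Spermatocytes are germ cells in meiosis: they pair homologous chromosomes along the synaptonemal complex, repair programmed breaks as crossovers, and silence the unpaired X and Y in the sex body during pachynema. Round spermatids are their haploid products. They build the acrosome and the flagellum, and they ready the genome for the exchange of histones for transition proteins and then protamines. Many promoters of spermatid genes are already accessible in spermatocytes before the genes are strongly transcribed, so accessibility separates these stages less sharply than RNA.

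Total counts in peaks were 3358377, 1745465 and 1433230 in RoundSpermatid A, B and C, and 1658180 and 1946165 in Spermatocyte A and B. A count of 0 allows up to 3 counts, which is 0.893 to 2.09 CPM (counts scaled to the total in peaks of each library). Such limits cover counting error only.

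The starts of the 5 marker genes are shown first because the check of the labels rests on their peaks. Each line gives 200 bases before the annotated start and 20 from it (RefSeq, GRCm38.p6), read in the direction of the gene; all 5 annotated starts lie within the peak measured. Capitals mark matches, on either strand, to any of 6 short motifs. These are the E-box CACGTG, held by 5.81% of the 32851 promoter windows of this length, and the core of a cyclic AMP response element TGACG, held by 17.3% of them. The CCAAT box was in 31.0% of the windows, and the X-box part written GTTGCC was in 9.65%. The MYB site written CAACTG was in 10.1% of the windows, and the TATA box searched as TATAAA was in 10.5%.
Prm1 (chr16:10796804-10797023, minus strand): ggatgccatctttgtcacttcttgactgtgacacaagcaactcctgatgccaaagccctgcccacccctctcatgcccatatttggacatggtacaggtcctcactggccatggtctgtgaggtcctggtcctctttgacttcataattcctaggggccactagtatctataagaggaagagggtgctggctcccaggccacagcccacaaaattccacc
Tnp1 (chr1:73015880-73016099, minus strand): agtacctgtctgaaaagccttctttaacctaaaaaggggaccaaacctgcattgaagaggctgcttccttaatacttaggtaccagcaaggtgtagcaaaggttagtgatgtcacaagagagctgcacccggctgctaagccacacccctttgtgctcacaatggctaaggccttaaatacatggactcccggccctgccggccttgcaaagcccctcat
Hils1 (chr11:94967393-94967612, plus strand): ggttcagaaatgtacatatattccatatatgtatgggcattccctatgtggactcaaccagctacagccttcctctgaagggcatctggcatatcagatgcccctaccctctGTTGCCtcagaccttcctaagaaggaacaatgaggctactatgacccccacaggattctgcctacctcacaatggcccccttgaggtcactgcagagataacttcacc
Sycp3 (chr10:88459387-88459606, plus strand): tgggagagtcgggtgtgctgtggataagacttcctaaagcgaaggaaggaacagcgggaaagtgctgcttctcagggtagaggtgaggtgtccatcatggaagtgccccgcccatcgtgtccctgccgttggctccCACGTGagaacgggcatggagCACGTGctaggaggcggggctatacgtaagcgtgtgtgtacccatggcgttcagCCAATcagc
Hormad1 (chr3:95559477-95559696, plus strand): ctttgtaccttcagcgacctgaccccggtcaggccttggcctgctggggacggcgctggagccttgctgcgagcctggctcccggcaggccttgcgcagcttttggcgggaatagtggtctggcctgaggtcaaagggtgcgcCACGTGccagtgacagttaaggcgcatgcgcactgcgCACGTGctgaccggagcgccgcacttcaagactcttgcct
The meiotic genes Sycp3 and Hormad1 each hold 2 E-boxes, and Sycp3 also holds a CCAAT box. The Hils1 window holds the X-box part. The windows of Prm1 and Tnp1 hold none of the 6. A match is a run of letters and no evidence of a bound factor.

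All 5 marker peaks were present in every library, so markers of both stages were accessible in all 5. In a library made from many cells, a lower value can mean fewer cells of a stage or less open DNA per cell, and these cannot be told apart. Prm1 encodes protamine 1, and its start peak (chr16:10796759-10797070) had 14, 12.6 and 25.1 CPM in RoundSpermatid A, B and C and 22.9 and 21.6 CPM in Spermatocyte A and B. RoundSpermatid A and B were the lowest and RoundSpermatid C the highest. The transition protein gene Tnp1 (chr1:73015736-73016139) had 20.8, 20.1 and 39.8 CPM in RoundSpermatid A, B and C and 33.2 and 25.2 CPM in Spermatocyte A and B. Hils1, a spermatid linker histone (chr11:94967377-94967858), had 32.2, 41.2 and 53.7 CPM against 44.0 and 43.7 CPM. For each of these 3 spermatid genes the libraries named Spermatocyte lay between RoundSpermatid C and the other two. In KIT-positive spermatogonia the 3 peaks were nearly closed, at 1.04 ± 1.02, 1.86 ± 0.994 and 1.31 ± 0.756 CPM (SD, n = 3).

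Hormad1, a protein of unsynapsed meiotic axes (chr3:95559326-95559944), was highest in RoundSpermatid A and B, with 36.9 and 58.4 CPM, against 27.9 CPM in RoundSpermatid C and 32.6 and 24.2 CPM in Spermatocyte A and B. Sycp3, a component of the chromosome axis (chr10:88459284-88460569), differed little, with 85.2, 83.6 and 73.3 CPM in RoundSpermatid A, B and C and 88.7 and 77.1 CPM in Spermatocyte A and B. Grouped by name, the round spermatid and spermatocyte libraries overlapped at all 5 markers. Grouped by title they did not overlap at 4: Prm1, Tnp1 and Hils1 were higher in every titled round spermatid library, and Hormad1 was lower in every one. Over all 47877 tested peaks, the titled round spermatid libraries lay wholly higher at 13.4% and wholly lower at 15.5%; by name these shares were 11.8% and 11.5%. None of these marker differences passed adjustment over all peaks. The title-based log2 fold changes were 0.80 ± 0.31 for Prm1 (SE, edgeR adjusted p = 0.220), 0.68 ± 0.26 for Tnp1 (adjusted p = 0.230), 0.40 ± 0.21 for Hils1 (adjusted p = 0.419), -0.70 ± 0.23 for Hormad1 (adjusted p = 0.142) and -0.06 ± 0.16 for Sycp3 (adjusted p = 0.926). The name-based values were -0.43, -0.17, -0.10, 0.52 and -0.05 in the same order of genes, with edgeR adjusted p of 0.682 or more.

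**Figure D1:**
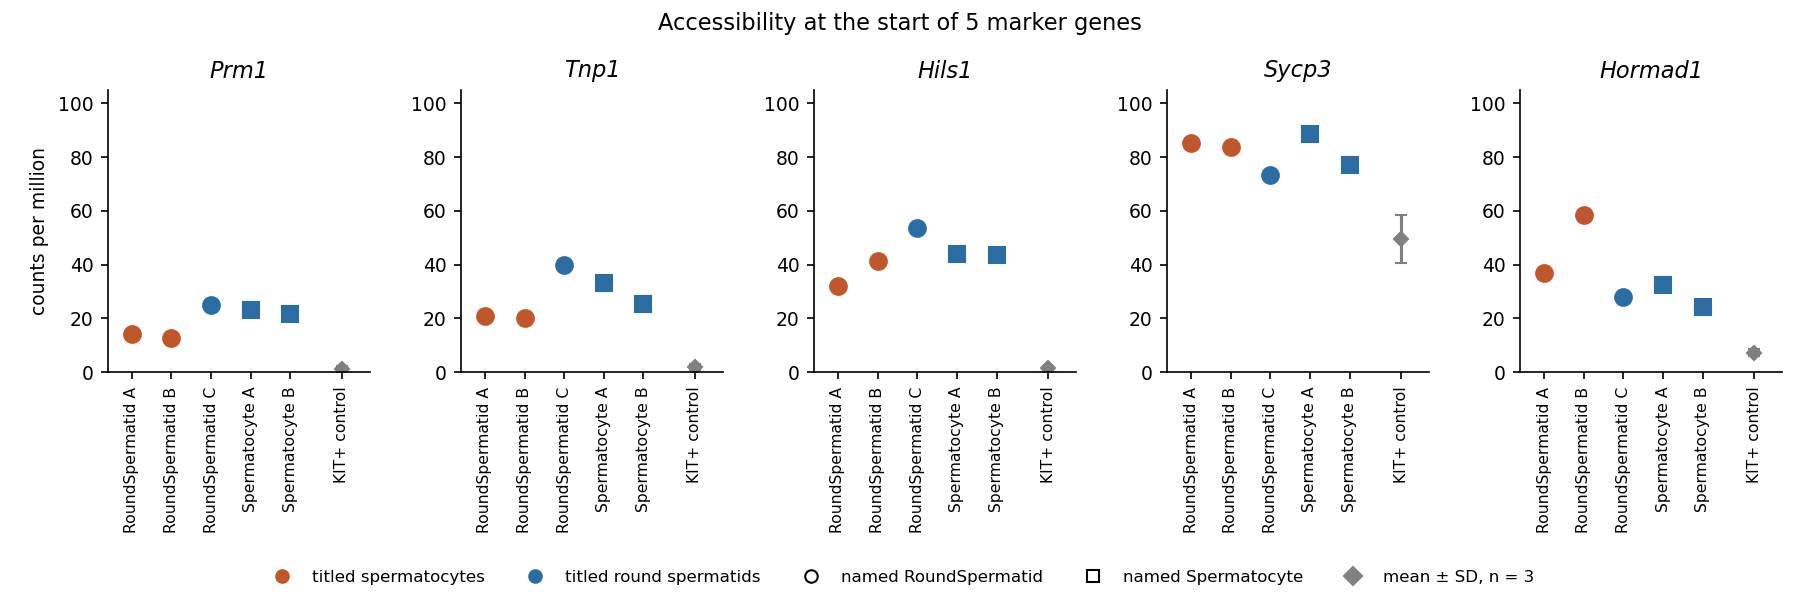
Accessibility in CPM (vertical axis) at the start peaks of 5 marker genes in each of the 5 libraries, coloured by title and shaped by name, with the mean ± SD of 3 KIT-positive control libraries. Orange and blue points separate at Prm1, Tnp1, Hils1 and Hormad1, and mix at Sycp3.

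Grouped by name, no peak passed the test. Of 47877 peaks tested with edgeR, 0 were higher (0.0%) and 0 lower (0.0%) in the libraries named RoundSpermatid at an adjusted p under 0.05, and the smallest adjusted p was 0.108. At an unadjusted p under 0.05 there were 3522 peaks (7.36%). DESeq2 also called 0, with 1381 peaks at an unadjusted p under 0.05. The groups did not overlap at 5666 peaks that were higher (11.8%) and 5494 that were lower (11.5%) in the libraries named RoundSpermatid. When RoundSpermatid C was left out, 4 peaks were called higher and 8 lower; without Spermatocyte B, 1 was called higher and 0 lower. At 11 of those 12 peaks, RoundSpermatid C, which had taken no part in the call, lay nearer to the mean of Spermatocyte A and B than to that of RoundSpermatid A and B (on the log2(CPM + 1) scale). At the 1 exception, an intergenic peak nearest to Inhba, RoundSpermatid C had 3.49 CPM, beside 2.08 and 4.01 CPM in RoundSpermatid A and B. These 12 were chosen by their difference between A and B of the 2 names, but not by the value of RoundSpermatid C. All 12 values of RoundSpermatid C come from that 1 library, so the peaks are not replicates. The matching share over all tested peaks is not given here, so 11 of 12 has no background to be set against.

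The overall profiles were most alike in RoundSpermatid A and RoundSpermatid B, and the libraries most like RoundSpermatid C changed when depth was equalised. Over 46683 peaks with a mean of at least 10 counts, Pearson's r of log2(CPM + 1) was highest for RoundSpermatid A and B, at 0.898. The next highest value, 0.879, joined RoundSpermatid A with Spermatocyte B, which are in different groups by name and by title, and exceeded the 0.863 of Spermatocyte A and B. RoundSpermatid C had r = 0.853 with RoundSpermatid A, 0.849 with Spermatocyte B, 0.842 with Spermatocyte A and 0.823 with RoundSpermatid B. The deepest library, RoundSpermatid A, had the highest r with 3 of the other 4 libraries, and depth is shared by all its pairs. When all libraries were thinned to 1433230 counts, r fell to between 0.805 and 0.866 and the pair of RoundSpermatid A and B remained the highest. RoundSpermatid C then had r = 0.836 with Spermatocyte A and 0.837 with Spermatocyte B, above its 0.830 with RoundSpermatid A and 0.815 with RoundSpermatid B. These are correlations across peaks, which are not independent replicates.

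**Figure D2:**
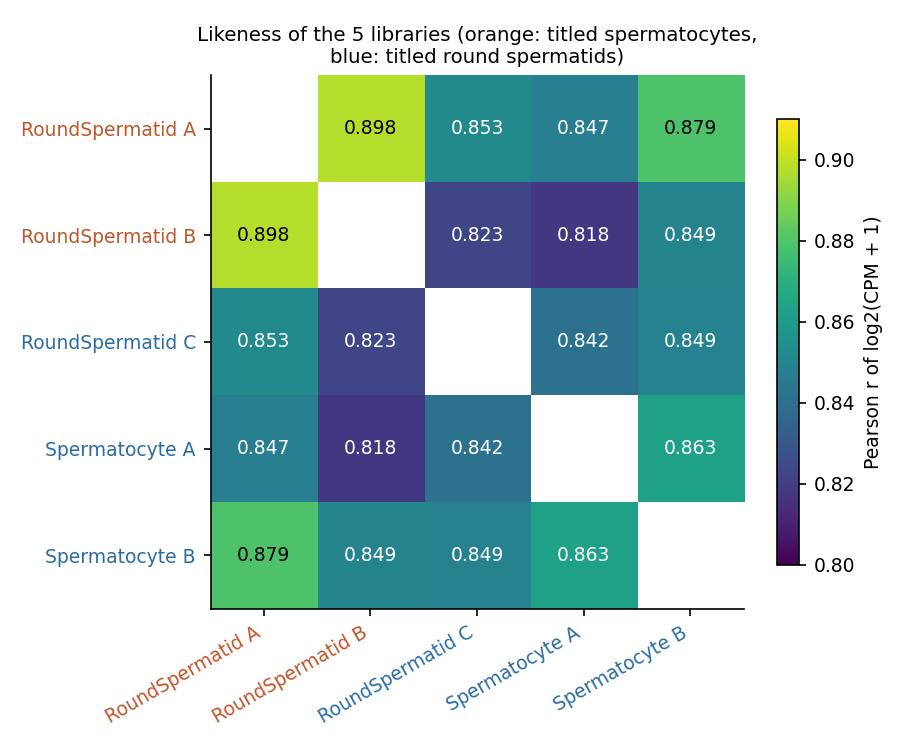
Pearson's r of log2(CPM + 1) over 46683 peaks for each of the 10 pairs of libraries, with library names coloured by title. The highest value, 0.898, joins RoundSpermatid A and B, and the lowest, 0.818, joins RoundSpermatid B and Spermatocyte A.

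Grouped by title, 106 peaks rose (0.221%) and 54 fell (0.113%) in round spermatids among the same 47877 peaks, at an edgeR adjusted p under 0.05. At an unadjusted p under 0.05 there were 6093 peaks (12.7%). Titled round spermatid libraries lay wholly above the titled spermatocytes at 6419 peaks (13.4%) and wholly below them at 7426 (15.5%). The calls depend on each library: the edgeR test called 5 of the 160 peaks without Spermatocyte A, 19 without Spermatocyte B, 14 without RoundSpermatid A, 14 without RoundSpermatid B and 12 without RoundSpermatid C, while every one of the 160 that could still be tested kept its direction. The kept direction was largely fixed by which peaks were called. At 104 of the 106 that rose and all 54 that fell, the titled groups did not overlap. A fit together with 8 control spermatogonial libraries called 1 of the 160, and DESeq2 called 13 and gave no adjusted p for 117.

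The peaks that fell by title were mostly promoters. Of the 54, 37 were at a gene start (68.5%, against 29.6% of all tested peaks), and 3 were on the X (5.56% against 0.802%). Of the 106 that rose, 28 were at a gene start (26.4%), 37 in a gene body and 34 between genes, and 0 were on the X. The intergenic peaks that rose lay a median of 105492 bp from the nearest protein-coding gene, against 38870 bp for all tested intergenic peaks. In KIT-positive spermatogonia the rising peaks were about as weak as tested peaks in general, with a median of 5.27 CPM (6.04 over all tested peaks). There 62.3% of the rising peaks had under 10 CPM, against 62.7% of all tested peaks. The falling ones were stronger there, with a median of 21.3 CPM and 25.9% under 10 CPM.

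Of the peaks taken for members of the gene lists, 1 for each gene, that of Spaca1 alone rose by title. This gene, which encodes a membrane protein of the acrosome, had 50.9 and 55.0 CPM in RoundSpermatid A and B, 79.5 CPM in RoundSpermatid C, and 91.1 and 80.2 CPM in Spermatocyte A and B (chr4:34049703-34050381). All 3 titled round spermatid libraries exceeded both others, and the log2 fold change was 0.69 ± 0.18 (SE; adjusted p = 0.0390 by edgeR); the KIT-positive mean was 16.0 CPM. The start of Gsg1, a germ cell-associated gene (chr6:135253718-135254513), had 68.8 and 53.9 CPM in RoundSpermatid A and B, 118 CPM in both RoundSpermatid C and Spermatocyte A, and 72.5 CPM in Spermatocyte B. Its log2 fold change was 0.73 ± 0.17 (adjusted p = 0.0167), with Spermatocyte B close to RoundSpermatid A. The start of Kif2b, a kinesin of the microtubule-depolymerizing family (chr11:91577012-91577939), had 63.7 and 68.2 CPM against 110, 110 and 88.9 CPM, and rose by 0.67 ± 0.16 (adjusted p = 0.0300). A called peak 970 bp beyond the end of Tnp1 (chr1:73013627-73014104) had 20.2 and 20.6 CPM against 48.1, 54.9 and 26.2 CPM, with a log2 fold change of 1.08 ± 0.25 (adjusted p = 0.0191). Gsg1, Kif2b and the peak by Tnp1 were chosen after their values were seen.

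Among starts that fell by title, Tex101, a germ cell surface protein present from spermatocytes on (chr7:24671711-24672450), had 64.0 and 69.3 CPM in RoundSpermatid A and B. It had 38.4 CPM in RoundSpermatid C and 36.2 and 27.2 CPM in Spermatocyte A and B, which is -0.96 ± 0.20 in log2 fold change (adjusted p = 0.00644 by edgeR). Zcwpw1 encodes a reader of the histone marks that PRDM9 leaves at recombination hotspots. Of its 2 peaks, that at the start (chr5:137787144-137787937) had 34.2 and 34.9 CPM in RoundSpermatid A and B against 15.3, 15.7 and 14.9 CPM in the others, a log2 fold change of -1.15 ± 0.28 (adjusted p = 0.0260). The neighbouring stronger peak (chr5:137785797-137787024) had 61.0 and 66.5 CPM against 50.2, 42.8 and 42.6 CPM and did not pass (adjusted p = 0.255). Rpl10a, a ribosomal protein gene, had 66.7 and 59.6 CPM at its start against 26.5, 21.1 and 32.4 CPM, and Mtf1, a metal-responsive transcription factor, had 89.9 and 91.7 CPM against 43.3, 50.1 and 42.6 CPM. Zcwpw1 at its start, Rpl10a and Mtf1 were chosen after their values were seen.

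The starts of 3 genes from the peaks called by title are shown as examples of the rising (Spaca1) and falling (Tex101, Eif2b1) promoters, with the same motifs in capitals.
Spaca1 (chr4:34050046-34050265, minus strand): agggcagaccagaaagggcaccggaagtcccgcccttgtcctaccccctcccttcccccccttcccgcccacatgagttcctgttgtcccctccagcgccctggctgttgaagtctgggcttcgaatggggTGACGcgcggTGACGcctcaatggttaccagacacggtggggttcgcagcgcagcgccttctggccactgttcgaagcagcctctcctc
Tex101 (chr7:24672031-24672250, minus strand): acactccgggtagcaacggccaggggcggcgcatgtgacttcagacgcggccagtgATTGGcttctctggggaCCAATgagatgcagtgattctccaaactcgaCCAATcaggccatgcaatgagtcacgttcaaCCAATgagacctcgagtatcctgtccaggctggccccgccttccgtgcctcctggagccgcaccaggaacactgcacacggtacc
Eif2b1 (chr5:124579112-124579331, minus strand): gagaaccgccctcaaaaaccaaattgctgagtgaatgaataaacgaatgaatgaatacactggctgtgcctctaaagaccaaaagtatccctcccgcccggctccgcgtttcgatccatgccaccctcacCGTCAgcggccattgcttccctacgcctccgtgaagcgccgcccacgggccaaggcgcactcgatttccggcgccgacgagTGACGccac
Spaca1 and Eif2b1 each hold the core of a cyclic AMP response element 2 times, and Tex101 holds the CCAAT box 4 times. Among the called gene starts, that core was in 6 of 28 that rose and 9 of 37 that fell, and the CCAAT box in 11 of 28 and 16 of 37. The E-box was in 0 and 2 of them.

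By a fixed rule, the 10 called peaks of largest fold change in each direction were taken among protein-coding genes, with at least 10 CPM in the higher group and no overlap of the groups. Those that rose were mostly weak sites. Slc4a3, an anion exchanger, had 2.68 and 1.15 CPM at its start in RoundSpermatid A and B against 10.47, 8.44 and 13.9 CPM in RoundSpermatid C and Spermatocyte A and B (log2 fold change 2.38 ± 0.55, edgeR adjusted p = 0.0186). Tmem26 (1.94) and Brinp3 (1.74) also rose at their starts. The other 7 lay in gene bodies: Nedd4l, a ubiquitin ligase (2.12), the mitochondrial carrier Slc25a21 (2.11), the DNA-binding protein Arid3a (1.98), Pkd1l3 (1.92), Galntl6 (1.83), Tusc3, a subunit of the complex that attaches N-glycans (1.77), and Fkbp14, a prolyl isomerase of the endoplasmic reticulum (1.73), each as a log2 fold change. No library of these 10 peaks exceeded 21.1 CPM.

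Of the 10 that fell, 6 were at gene starts. Eif2b1, a subunit of the translation factor eIF2B (chr5:124578852-124579544), had 36.9 and 36.1 CPM in RoundSpermatid A and B, 16.7 CPM in RoundSpermatid C, and 10.3 and 13.9 CPM in Spermatocyte A and B (log2 fold change -1.41 ± 0.28, edgeR adjusted p = 0.00258). Prps1, an X-linked enzyme of nucleotide synthesis, had 12.2 and 20.1 CPM against 4.19, 4.82 and 4.11 CPM (-1.80 ± 0.42, adjusted p = 0.0196). Pdk2, a pyruvate dehydrogenase kinase, had 17.9 and 24.6 CPM against 4.88, 8.44 and 6.68 CPM, with a log2 fold change of -1.60. Pdzd9 (-1.59), the zinc finger gene Zfp27 (-1.64) and Ankar (-1.37) were the other starts. In gene bodies, Zfp316 (-1.78), Megf6 (-1.71), the chloride transporter gene Slc12a5 (-1.55) and Dact3 (-1.36) fell. Of all 20, only Zfp316, Pdzd9 and Eif2b1 kept their call in any of the fits that left out 1 library, each in 1 of 5.

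**Figure D3:**
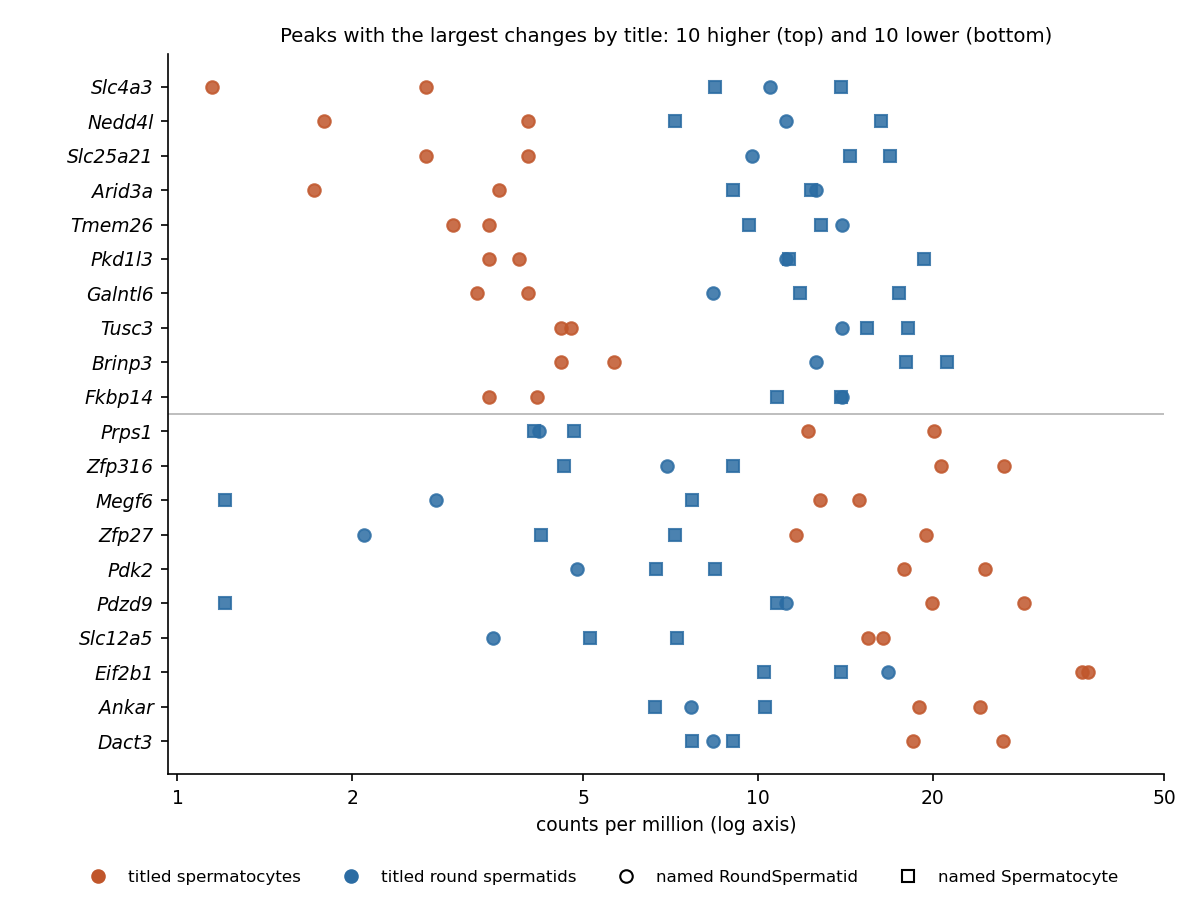
CPM (log axis) in each library at the 10 rising and 10 falling peaks named by rule, coloured by title and shaped by name. RoundSpermatid C (blue circle) lies with the squares at all 20, a separation that the rule required.

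The smallest adjusted p-values among the peaks called by title belonged to 2 that rose. A peak in the body of Sh3gl3, an endophilin gene (chr7:82252114-82254004), had 68.8 and 75.6 CPM in RoundSpermatid A and B against 169, 171 and 122 CPM in RoundSpermatid C and Spermatocyte A and B (log2 fold change 1.12 ± 0.15, edgeR adjusted p = 4.59e-08). The start of 4931408C20Rik (chr1:26686845-26688325) had 59.0 and 67.0 CPM against 145, 148 and 119 CPM (1.16 ± 0.16, adjusted p = 4.59e-08). At both, all 3 titled round spermatid libraries lay above the other two, and both were lower in KIT-positive spermatogonia, at 12.7 and 21.2 CPM. These 2 were chosen after their values were seen.

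Of the lists of spermatid genes, that of spermatid chromatin had the clearest split between its own members. None of its 13 tested members passed the test under either grouping at the peak taken for each gene. As a list it did not separate by title. Its title-based median log2 fold change was 0.0005, and its sums overlapped, with means of 512 CPM in round spermatids and 496 CPM in spermatocytes. By title, 6 of the 13 (Prm1, Prm2, Prm3, Tnp1, Hils1 and H1f7) lay wholly higher in round spermatids, where 10.50% of 15290 genes with 1 tested peak each did so; Prm2 and Prm3 share 1 peak. That peak had 37.2 and 45.8 CPM in RoundSpermatid A and B against 69.1, 54.9 and 57.5 CPM. The members wholly lower were H2bc1 and H2ac1, genes of testis histones that spermatocytes already use, and Kdm3a, a histone demethylase. H2bc1 and H2ac1 share 1 peak, and the log2 fold change of Kdm3a was only -0.06. That of H1f7, among those wholly higher, was only 0.19 ± 0.20 (SE). Over all genes 21.9% lay wholly lower by title. By name, 2 of the 13 (H2bc1 and H2ac1, with their 1 shared peak) were wholly higher and 0 wholly lower, beside 13.9% and 9.13% of all genes.

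The acrosome, flagellum and testis isozyme lists were lower, not higher, in titled round spermatids as sums. Of 25 acrosome genes 1 (Spaca1) rose by title and 0 fell; their median log2 fold change was -0.09, against -0.07 over 1 peak of every gene. The acrosome peaks summed to 929, 939 and 909 CPM in RoundSpermatid A, B and C and to 887 and 875 CPM in Spermatocyte A and B. By name these sums were wholly higher in round spermatids, and by title wholly lower. No flagellum gene of 34 passed, with a median of -0.14, and 11 lay wholly lower and 4 wholly higher in titled round spermatids, beside 21.9% and 10.50% of all genes. No testis isozyme gene of 15 passed either, with a median of -0.12, and their sum too was wholly lower by title, with means of 772 CPM in round spermatids and 811 CPM in spermatocytes. Summed over the list, flagellum peaks had 1557, 1577 and 1488 CPM in RoundSpermatid A, B and C and 1479 and 1537 CPM in Spermatocyte A and B. That sum was lower in every titled round spermatid library. Actl7b, an actin-like protein of the acrosome and the strongest member of its list, had 111, 115 and 127 CPM in RoundSpermatid A, B and C and 124 and 106 CPM in Spermatocyte A and B, which overlap under both groupings.

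Of 22 tested genes of meiotic recombination 0 passed under either grouping at the peak taken for each, though the other peak of Zcwpw1 passed by title. By title 16 had a negative log2 fold change, where 57.0% of all genes did, and 10 lay wholly lower and 0 wholly higher, where 21.9% of genes lay wholly lower. The median was -0.22. Ccnb1ip1, a regulator of crossovers, had 33.9 and 32.1 CPM in RoundSpermatid A and B against 19.5, 21.7 and 21.6 CPM in RoundSpermatid C and Spermatocyte A and B (log2 fold change -0.63 ± 0.26, edgeR adjusted p = 0.265). The list summed to 1046, 1001 and 922 CPM in RoundSpermatid A, B and C and to 830 and 889 CPM in Spermatocyte A and B. By title these sums did not overlap, and by name they did not overlap either, in the opposite direction.

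Of 13 tested genes of the synaptonemal complex and axis, 0 passed; by title 5 (Tex12, Hormad1, Hormad2, Smc1b and Stag3) lay wholly lower, beside 21.9% of all genes, and 0 wholly higher, with a median of -0.08. Hormad2 had 42.6 and 52.7 CPM in RoundSpermatid A and B against 29.3, 28.9 and 27.7 CPM (log2 fold change -0.69 ± 0.23, edgeR adjusted p = 0.137). Among 22 genes of pachynema and the meiotic divisions 1, Tex101, fell by title and 0 rose, with a median of -0.14. Ccna1, the cyclin of the meiotic divisions, went the other way, with 85.2 and 83.6 CPM in RoundSpermatid A and B and 114, 94.1 and 101 CPM in the others (0.31 ± 0.16, adjusted p = 0.390). The median over 8 genes of meiotic entry was 0.08 by title, and that over 15 regulators of late germ cells 0.09. Neither list had a call at the peaks taken for its genes. In that last list Crem, an activator of spermatid genes, had 68.8, 86.5 and 64.9 CPM in RoundSpermatid A, B and C and 47.0 and 66.3 CPM in Spermatocyte A and B.

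Lists of genes used in most cells had medians of similar size or larger. Of 15 replication and cell cycle genes 0 passed, with a title-based median of -0.13. The 9 tested housekeeping genes had a median of -0.45 with 0 calls; on autosomes alone it was -0.21. Polr2a, the largest subunit of RNA polymerase II, had 75.3 and 80.8 CPM in RoundSpermatid A and B against 50.9, 55.5 and 60.6 CPM, and Eef1a1, a translation elongation factor, had 73.8 and 77.3 CPM against 80.2, 91.7 and 93.5 CPM.

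**Figure D4:**
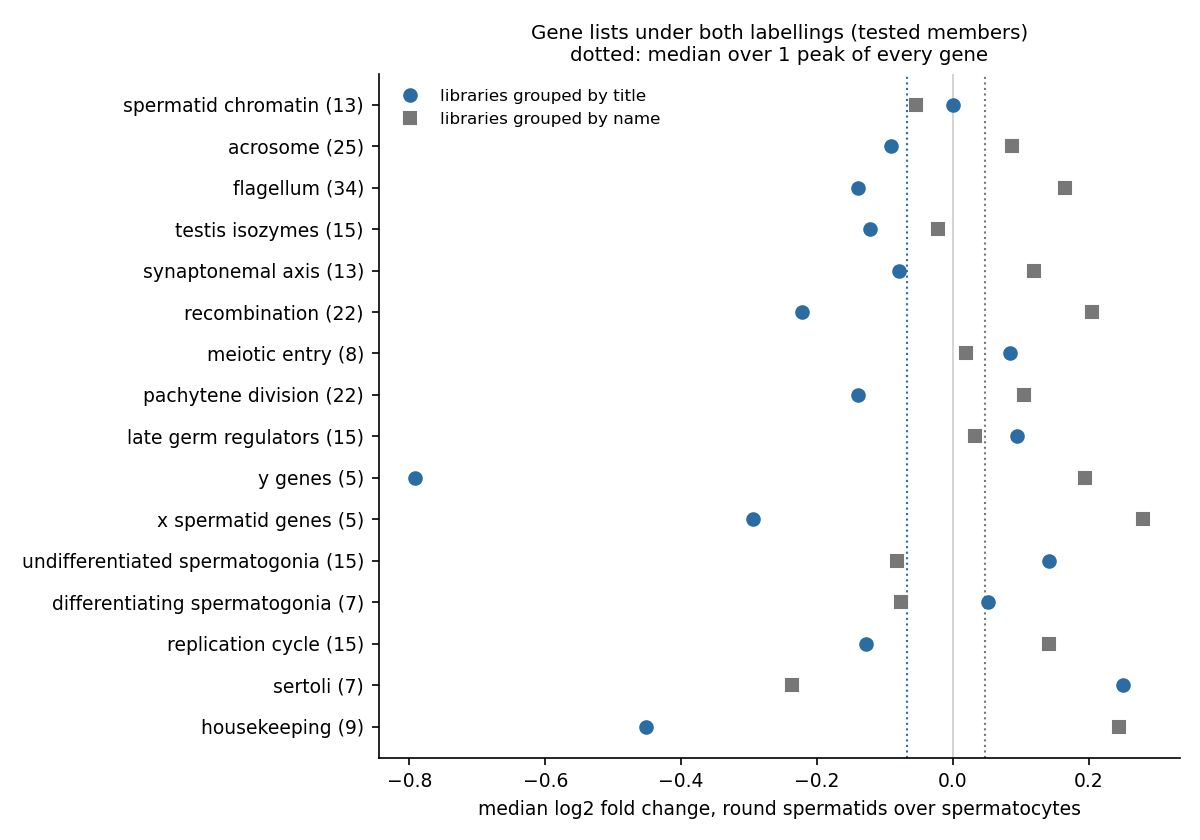
Median log2 fold change (horizontal axis, round spermatids over spermatocytes) of the tested members of each gene list, by title (circles) and by name (squares), with the number of members in brackets and the medians over 1 peak of every gene as dotted lines. Recombination genes lie at -0.22 by title and 0.21 by name, and the housekeeping list lies farther out, at -0.45 and 0.25. On autosomes alone, not drawn here, the title-based housekeeping median was closer to that of recombination genes.

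Summed over the lists of other cell types, the titled groups overlapped for each of 4 somatic lists and for both spermatogonial ones. By name, the Sertoli sum was wholly lower in round spermatids, with means of 68.9 and 80.4 CPM, as was the immune sum, with 16.2 and 19.4 CPM; the other 4 overlapped. The part of such cells in the other results was not tested. Peaks of 18 genes of undifferentiated spermatogonia summed to 285, 248 and 260 CPM in RoundSpermatid A, B and C and to 261 and 277 CPM in Spermatocyte A and B, against 534 to 605 CPM in MCAM-high spermatogonia. For 8 Sertoli cell genes with a peak of 12 listed, the sums ranged from 62.2 CPM in RoundSpermatid A to 82.6 CPM in Spermatocyte A, below the 121 to 154 CPM of KIT-positive spermatogonia. Of the defining Sertoli genes, Sox9 had 2.06 to 8.44 CPM, and Gata4 had no peak within 1 kb of its start or end. Peaks of 2 Leydig cell genes of 7 summed to 12.0 to 17.0 CPM, of 5 peritubular and endothelial genes of 7 to 37.8 to 50.7 CPM, and of 3 immune genes of 7 to 13.95 to 20.04 CPM.

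The X carried a smaller share of counts in titled round spermatids. The share was 0.758% and 0.766% in RoundSpermatid A and B, 0.523% in RoundSpermatid C, and 0.488% and 0.592% in Spermatocyte A and B, against 1.44 to 1.63% in KIT-positive and 2.0 to 2.42% in MCAM-high spermatogonia. All 5 were thus far below spermatogonia, and RoundSpermatid A and B stood above the other 3. The difference by title was -0.228 percentage points (exact permutation p = 0.1, two-sided, the smallest that 3 against 2 libraries allow), and by name 0.143 (p = 0.3), where the groups overlapped. Over peaks with a mean of at least 10 counts the difference by title was -0.129. Of 384 tested X peaks, 323 (84.1%) had a negative log2 fold change by title, with a median of -0.44, against 48.7% of all tested peaks. On the Y the shares were 0.0310, 0.0374 and 0.0264% in RoundSpermatid A, B and C and 0.0307 and 0.0328% in Spermatocyte A and B, which overlapped under both groupings.

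At single X genes the difference was large where the peak was weak. Pcdh19, a protocadherin gene (chrX:133688644-133689275), had 5.96 and 11.46 CPM in RoundSpermatid A and B and 0 counts in RoundSpermatid C, Spermatocyte A and Spermatocyte B, at least 4.80-fold lower when 3 counts are allowed in each library (edgeR adjusted p = 0.00332). Tsr2, a ribosome maturation factor, had 11.02 and 5.73 CPM against 0.698, 0 and 1.03 CPM (adjusted p = 0.0191). In KIT-positive spermatogonia these peaks had 23.1 and 9.68 CPM. Both were chosen after their values were seen. X-linked genes listed for spermatids were little covered: 5 of 12 had a peak and none passed. Their sums ranged from 45.2 to 68.9 CPM over the 5 libraries and overlapped under both groupings. Among them Cypt3 had 13.1, 9.74 and 15.3 CPM in RoundSpermatid A, B and C and 13.9 and 13.4 CPM in Spermatocyte A and B. Zfy2, a Y-linked zinc finger gene of late germ cells, had 6.55 and 11.46 CPM in RoundSpermatid A and B against 13.95, 11.46 and 12.3 CPM, beside 0.746 CPM in KIT-positive spermatogonia.

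Gene starts took 46.8, 44.5 and 43.4% of counts in RoundSpermatid A, B and C, and 42.8 and 43.5% in Spermatocyte A and B. The difference by title was -2.45 percentage points and did not overlap (exact permutation p = 0.1, two-sided, the smallest possible); it was -1.32 without RoundSpermatid A and -3.57 without RoundSpermatid B. Intergenic peaks took 20.6, 22.1 and 23.0% in RoundSpermatid A, B and C and 23.4 and 22.9% in Spermatocyte A and B, a difference by title of 1.73 points, which was 0.982 without RoundSpermatid A. This share of counts at gene starts moves with the titles beside every gene list above, and its part in them was not tested. When only gene starts were fitted, 86 rose and 39 fell by title, and with offsets for promoter GC content 116 rose and 51 fell.

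Sites that change as spermatogonia differentiate gave a reference outside these 5 libraries. In control spermatogonia, 3940 of 44331 tested peaks (8.89%) were higher and 2404 (5.42%) lower in KIT-positive than in MCAM-high cells. The sites that were higher took 11.2, 10.4 and 10.4% of counts in RoundSpermatid A, B and C and 10.3 and 10.4% in Spermatocyte A and B. They took 17.0 to 20.6% in KIT-positive and 8.08 to 9.66% in MCAM-high cells. The gap between these 2 control ranges follows from the choice of sites, which used the same control libraries. RoundSpermatid A was the highest and the other 4 lay between 10.3 and 10.4%; the difference by title, -0.452 points, was -0.0955 without RoundSpermatid A. Sites that were lower in KIT-positive cells took 2.19 to 2.36% in all 5 libraries.

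**Figure D5:**
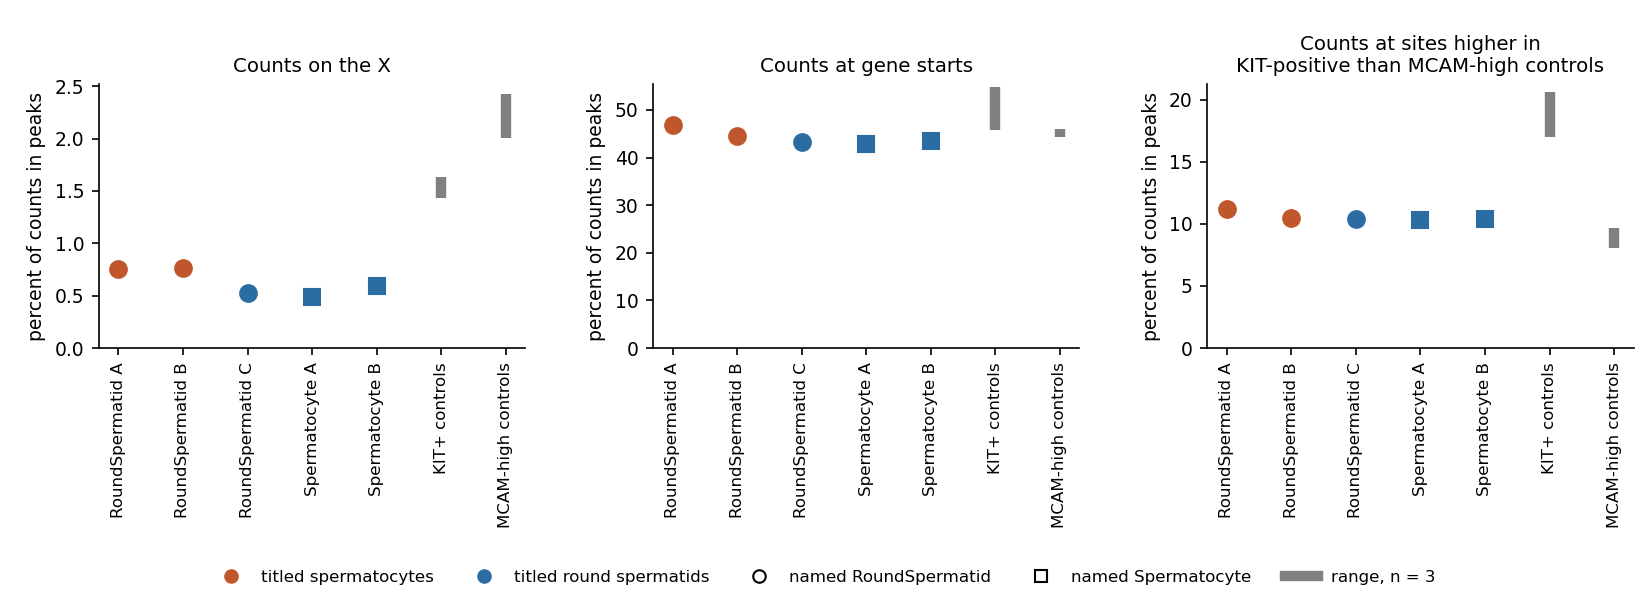
Percent of counts in peaks on the X, at gene starts, and at sites higher in KIT-positive than MCAM-high spermatogonia, in each of the 5 libraries (coloured by title, shaped by name) and as the range of 3 control libraries of each spermatogonial group. On the X, RoundSpermatid A and B lie at 0.758% and 0.766% and the other 3 libraries between 0.488% and 0.592%.

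The measurements that bear on the labelling did not all go one way. By title, Prm1, Tnp1, Hils1 and Hormad1 separated with the sign their stage gives and 160 peaks passed the test; by name none of the 5 markers separated and 0 peaks passed. Sums over the acrosome, flagellum and testis isozyme lists, whose genes act in spermatids, separated by title with the opposite sign. By title the housekeeping sum was also wholly lower in round spermatids, with a mean of 339 CPM against 383 CPM in spermatocytes. So were the replication sum and the share of counts at gene starts, whose part in these sums was not tested. By name, the acrosome sum separated with the sign the names give. Sums over the synaptonemal, recombination and pachynema lists, of meiotic genes, were wholly higher in round spermatids by name and wholly lower by title. The recombination list had a title-based median of -0.22 with 0 calls at the peaks taken for its genes, beside -0.45 for housekeeping genes. On autosomes alone the housekeeping median lay close to that of the recombination list. Without RoundSpermatid C, both groupings split the other 4 libraries the same way, with opposite sign. Among those 4, RoundSpermatid A and B were both lower at Prm1, Tnp1 and Hils1, and both higher at Hormad1. They also had the higher sums over every list named here. Whether the groups overlapped, and how many peaks passed, also rested on where RoundSpermatid C fell.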

How the data were processed

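The deposited file gives raw counts, as whole numbers, at 96049 peaks in 22 libraries. Picard, SAMtools, Bowtie2 and FastQC, and the builds GRCm38, mm10 and hg19, are named per the submitters' processing notes; how peaks were called and counted, and whether reads were offset for Tn5 or filtered for duplicates, is not given in the sources used here. Peaks were placed with a RefSeq table of GRCm38.p6: gene start means within 1 kb of an annotated start. The 5 libraries were tested in R 4.3.3 with edgeR 4.0.16 (TMM factors 0.985 to 1.01, filterByExpr, quasi-likelihood F test, 3 residual degrees of freedom, Benjamini-Hochberg over all peaks, threshold 0.05), grouped by name and by title; DESeq2 1.42.0 was an alternative. The test was checked on simulated data. Each gene of the 19 lists was given 1 peak, that with the highest mean count within 1 kb of its start, or of either end where the strand was unknown. Named peaks were the 5 markers, the 10 largest called changes per direction at protein-coding genes, and list members; others are marked where they appear. The members and lists were chosen with earlier results of these data known. Library shares were compared by exact permutation over all 10 assignments. Alternatives covered scaling, filters, tool, libraries left out, replicate letters and peak classes. Some were added after seeing the data: for the titles loess offsets, the 13 heterozygous libraries and autosomes only, and for both groupings gene starts alone, with and without GC offsets, and thinned libraries.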

Additional observations from a re-analysis of the deposited data

How the results depend on the processing

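Grouped by name, the count of called peaks was 0 higher and 0 lower under total counts, DESeq2 size factors, loess offsets, no filter, DESeq2, autosomes and the 13 heterozygous libraries. Gene starts alone gave 1 lower, with and without GC offsets. Leaving out 1 library gave 0 to 4 higher and 0 to 8 lower. Grouped by title, no filter gave 53 higher and 108 lower, DESeq2 9 and 4, and the 13 heterozygous libraries 0 and 1; leaving out 1 library gave 3 to 23 higher and 2 to 6 lower. With 3 against 2 libraries, a fit without 1 of them has fewer degrees of freedom. Of 380 refits of the 29 peaks named by rule or as X genes or list members, by title, 221 kept their side of the threshold, 159 lost the call and 0 reversed. The 29 include the 5 markers, which were not called and stayed uncalled in every refit. All 159 losses fell on the called peaks. At these the titled groups did not overlap, which left little room for a reversal.

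Replicate letters and title numbers do not pair the samples: deviations of same-lettered libraries correlated at -0.058 and 0.051, those of same-numbered titles at 0.005 and 0.003. With a replicate block by letter, the fit by name called 34 higher and 84 lower; RoundSpermatid C, the only C, then has a level of its own and no weight. The replicate block by title number gave 106 and 81.

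Without the peaks under a mean of 10 counts, the X difference by title was -0.129. Leaving out 1 library, differences by title ranged from -0.257 to -0.205 on the X, -3.57 to -1.32 at gene starts, 0.982 to 2.48 at intergenic peaks, -0.808 to -0.0955 at sites higher in KIT-positive cells and 0.00454 to 0.140 at sites lower there. The causes were not tested. The pair of RoundSpermatid A and B had the highest r in all 6 sets of peaks, 0.836 to 0.937.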
